A study of Homo sapiens with 41 samples.

Results

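The 10 genes described here encode SR splicing factors, and they were SRSF1, SRSF2, SRSF3, SRSF4, SRSF5, SRSF6, SRSF7, SRSF9, SRSF10 and SRSF11, out of 20176 protein-coding genes in the GENCODE annotation on hg19. They were selected on measured values, with the Elongin A peak lists already known, so the number, height, width and position of their peaks are given as a description without a test. A peak was assigned to a gene when it overlapped the gene or the 1 kb on either side of it. Elongin A, a subunit of the Elongin complex that associates with RNA polymerase II, was mapped in the human DLD1 line, derived from a colon cancer, in cells fixed with formaldehyde and given no siRNA. CUT&RUN, in which a nuclease tethered by an antibody cuts out the bound DNA, was performed with a goat antibody in 2 replicates against 1 goat IgG control and with a mouse antibody in 1 sample, beside 1 mouse IgG sample. The labels tie the mouse IgG sample to the mouse antibody list, but the study's methods name only goat IgG as the CUT&RUN control, so the control behind the mouse antibody fold enrichments is uncertain. ChIP-seq was performed in 1 sample against 1 input. The deposited lists held 8720, 2338 and 186 peaks for the goat antibody, the mouse antibody and ChIP-seq. None of them separates replicates or gives read totals, so no value below has a replicate error and the depth behind it is unknown.

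SR proteins bind short RNA motifs through RNA recognition motifs, and their arginine- and serine-rich tails recruit the splicing machinery to nearby splice sites. Many genes of the family carry a poison exon, an alternative exon with an in-frame stop codon, and including it sends the transcript to nonsense-mediated decay (NMD), which lets an SR protein hold down its own level. Elongin was first known as a factor that stimulates elongation by RNA polymerase II on purified templates.

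The goat antibody gave a peak at 8 of the 10 SRSF genes, whereas SRSF4 and SRSF11 had none. The same rule found a goat antibody peak at 21.7% of all coding genes, and at 17.7% of the 11205 coding genes whose length lay within the range of the SRSF genes, 3219 to 47371 bp. The 8 genes held 27 peaks, of which SRSF3 had 8, SRSF7 had 6 and SRSF5 had 3, and SRSF1, SRSF2, SRSF6, SRSF9 and SRSF10 had 2 each. The mouse antibody gave 3 peaks, at SRSF3 and SRSF6, so 2 of the 10 genes had one against 7.79% of coding genes. ChIP-seq gave no peak at any SRSF gene, and 0.783% of coding genes had one. As the genes were selected on these lists, nothing is read from the distance between their counts and these shares.

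Fold enrichment over IgG, as the authors' peak caller gave it, had a median of 4.79 (range 2.74 to 43.6) at the SRSF genes and of 4.32 over all goat antibody peaks. Of the 27 peaks, 8 lay below that list median and 3 were among its 884 highest, namely the peak at the SRSF1 promoter (43.6-fold), a peak in the last exon of SRSF3 (7.83-fold, rank 260) and the peak at the SRSF5 promoter (6.92-fold, rank 545). The median percentile of the 27 peaks by fold enrichment was 65.2. Their median width was 541 bp against 362 bp for the whole list, and 6 of them, or 22.2%, reached 1 kb against 4.51% of all peaks.

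**Figure D1:**
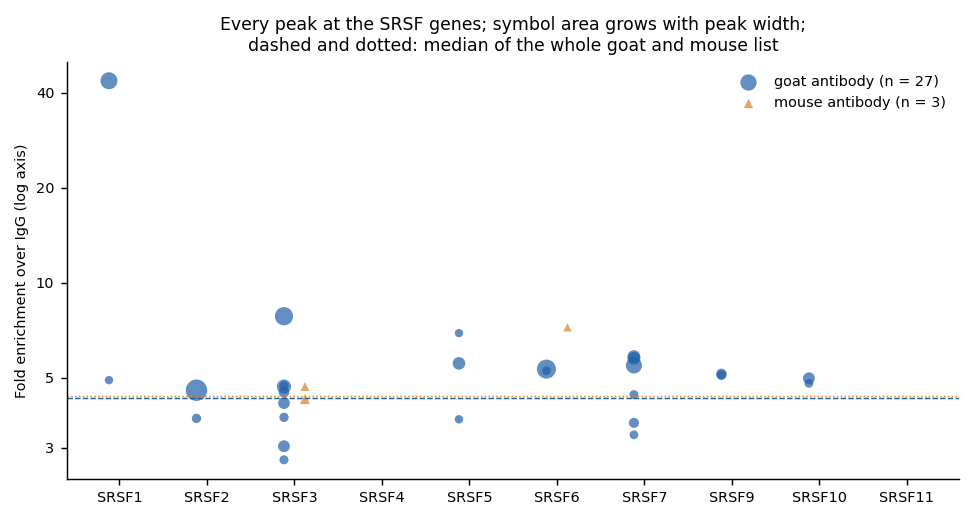
Fold enrichment over IgG (log axis) of every goat antibody peak (circles, n = 27) and mouse antibody peak (triangles, n = 3) at each SRSF gene, with symbol area growing with peak width and the whole-list medians as dashed (goat, 4.32) and dotted (mouse, 4.36) lines. The SRSF1 promoter peak stands alone at 43.6, and the other peaks lie between 2.74 and 7.83.

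Number of peaks and coverage set SRSF3 and SRSF7 apart from the other members. Among coding genes ranked by number of goat antibody peaks, SRSF3 was 30th and SRSF7 70th, and 117 genes, or 0.580%, had 6 or more. SRSF5 was 316th and the members with 2 peaks were 577th. Both leading genes are short, at 11.2 kb for SRSF3 and 7.90 kb for SRSF7, and peaks covered 58.8% of the canonical transcript span of SRSF3 and 55.0% of that of SRSF7. In the other members with a peak the covered share was 34.1% for SRSF6, 23.4% for SRSF2, 21.9% for SRSF1, 6.54% for SRSF9, 5.16% for SRSF5 and 0.989% for SRSF10. Over the 8 members with a peak, the median density was 2.17 peaks per 10 kb, compared with 0.251 over the 4378 coding genes with a peak. The median length of the 10 genes was 13.9 kb and that of all coding genes 27.2 kb, and the part of gene length in the density was not tested.

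**Figure D2:**
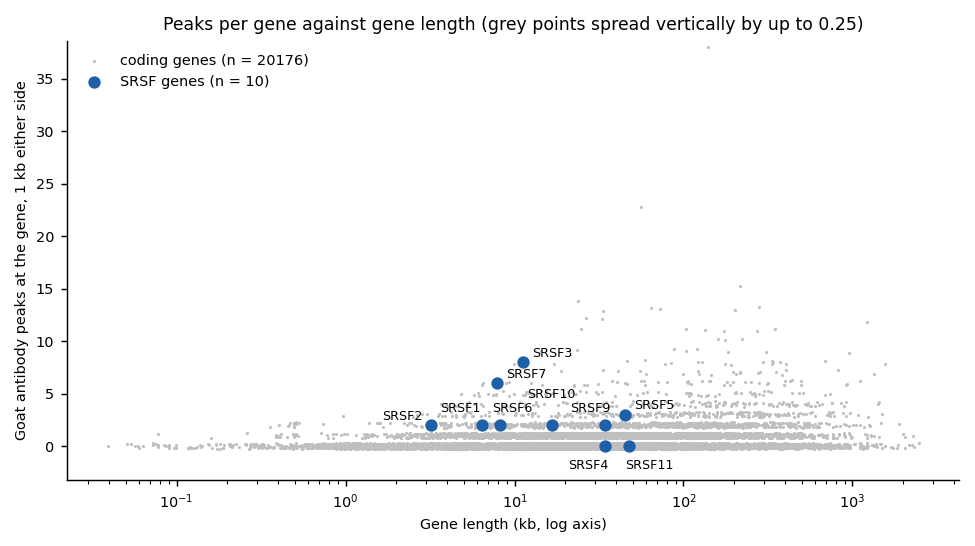
Number of goat antibody peaks at each coding gene with 1 kb either side (vertical axis) against gene length in kb (log axis), with all 20176 coding genes in grey and the 10 SRSF genes in blue. SRSF3 with 8 peaks and SRSF7 with 6 lie above most genes of their length, and SRSF4 and SRSF11, with none, are among the longest members.

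**Figure D3:**
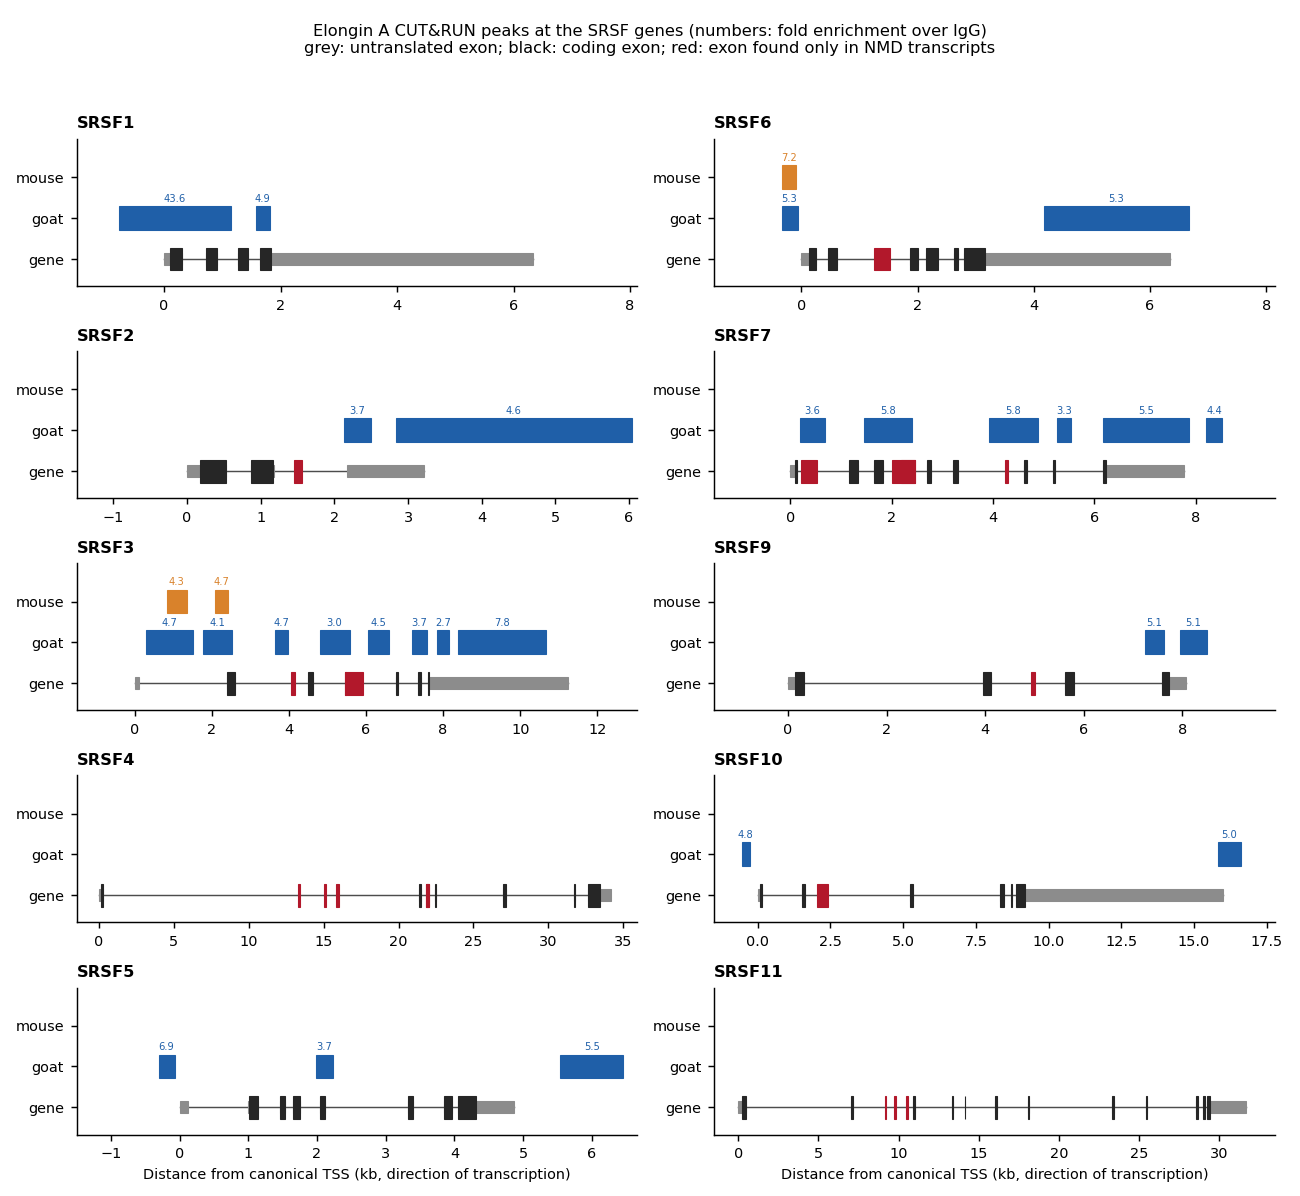
Maps of the 10 SRSF genes with distance from the canonical TSS in kb along the direction of transcription, each panel on its own scale. Coding exons are black, untranslated exons grey and exons of NMD transcripts only red, with goat antibody peaks in blue and mouse antibody peaks in orange above the gene, each with its fold enrichment. Blue bars cover most of the SRSF3 and SRSF7 genes, while SRSF4 and SRSF11 are empty.

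SRSF1 (chr17:56078280-56084707, minus strand), the founding member of the family and a general splicing activator, had the highest peak of the entire goat antibody list. It was 1912 bp wide (chr17:56083465-56085376) with a fold enrichment of 43.6 and a −log10 q of 279, first in the list by both measures, and the peak ranked second had a fold enrichment of 25.7. It ran from position −769 to position 1142 relative to the canonical TSS, with the summit 243 bp upstream. Neither the mouse antibody nor ChIP-seq had a peak there, and their nearest peaks were 57.5 kb and 150.5 kb from the gene. Among the 10 highest goat antibody peaks, 6 overlapped a mouse antibody peak and 4 a ChIP-seq peak, as did 8.33% and 0.837% of the whole list. The peak also overlapped ENSG00000266086 and ENSG00000279069, which have a start within 1 kb of its summit, and a peak over more than 1 gene cannot be assigned to either of them. The second SRSF1 peak was 243 bp wide with a fold enrichment of 4.91, and its summit lay in intron 3, 1635 bp from the TSS. The 101 bp centred on the promoter summit (hg19, chr17:56084800-56084900, minus strand) are shown because they carry the highest enrichment of the list, with CG dinucleotides in capitals.
SRSF1 promoter summit: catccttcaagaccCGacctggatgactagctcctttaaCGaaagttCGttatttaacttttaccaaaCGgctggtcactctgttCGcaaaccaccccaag

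Summits upstream of the canonical TSS were also found at SRSF5, SRSF6 and SRSF10, so 4 of the 10 genes had a summit in the window from 1 kb upstream to 100 bp downstream of the TSS, against 6.02% of 19894 canonical promoters. At SRSF5 (chr14:70193617-70238722, plus strand), whose product promotes exon inclusion, the peak was 235 bp wide with a fold enrichment of 6.92 and a summit 250 bp upstream. At SRSF10 (chr1:24290837-24307417, minus strand), an SR protein that represses splicing when it is dephosphorylated, a 285 bp peak with a fold enrichment of 4.79 had its summit 436 bp upstream. These SRSF5 and SRSF10 peaks lay inside the annotated genes, which begin farther upstream than the canonical TSS. SRSF6 (chr20:42086533-42094686, plus strand), a regulator of alternative splicing, had the only promoter at which the goat and mouse antibodies coincided. There the goat antibody peak was 277 bp wide with a fold enrichment of 5.25 (chr20:42086196-42086472), and the mouse antibody peak inside it was 241 bp wide with a fold enrichment of 7.21, rank 41 of 2338. Their summits were 9 bp apart, at 180 and 171 bp upstream of the TSS. The windows of 101 bp around the upstream summits of SRSF6 (hg19, chr20:42086306-42086406, plus strand) and SRSF10 (hg19, chr1:24307203-24307303, minus strand) held 7 and 3 CG dinucleotides, in capitals, and the SRSF1 window held 5.
SRSF6 goat antibody summit: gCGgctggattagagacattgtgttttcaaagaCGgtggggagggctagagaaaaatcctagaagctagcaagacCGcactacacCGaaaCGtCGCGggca
SRSF10 upstream summit: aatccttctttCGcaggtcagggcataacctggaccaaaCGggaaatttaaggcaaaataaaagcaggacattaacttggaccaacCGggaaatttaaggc

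The 32 bp at the SRSF10 upstream summit had a second exact copy in the assembly, on a sequence outside the assembled chromosomes. Those at the other SRSF10 summit had a second copy on the same sequence, whereas the summits of all other member peaks had 1 copy. Whether the authors aligned reads to sequences outside the assembled chromosomes is not given in the sources used here. It is therefore unknown whether the second copies bear on the SRSF10 peaks. The annotation also lists 11 pseudogenes of the SRSF genes, and none of them had a peak in any list.

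Base composition was described for the upstream peaks and the rest. The 4 upstream peaks had a median GC content of 55.9% and 7.83 CG dinucleotides per 100 bp, while the other 23 had medians of 37.9% and 0.739. Over the whole goat antibody list the medians were 44.5% and 1.10, and the upstream peak of SRSF10 was close to these, at 44.9% and 1.75. A peak in intron 1 of SRSF7 had its summit 331 bp downstream of the TSS. It was as CG-rich as the upstream peaks of SRSF1, SRSF5 and SRSF6, at 58.9% GC and 8.76 CG dinucleotides per 100 bp. Its summit lay within 1 kb of a start of the divergent gene GEMIN6. The promoters of the members held at least as many CG dinucleotides as the median coding promoter, whether or not they held a summit. In the 300 bp from 250 bp upstream to 50 bp downstream of the TSS, the number of CG dinucleotides ran from 23 at SRSF5 and SRSF11 to 48 at SRSF4, which had no peak, and the median of all coding promoters was 23. Their GC content ran from 53.7% at SRSF11 to 74.7% at SRSF4, on both sides of the median of 63.7% over all coding promoters.

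Motifs in these 300 bp promoters were searched on both strands. GGGCGG, the GC box, was found in 5 member promoters (SRSF2, SRSF4, SRSF6, SRSF7 and SRSF11) and in 61.4% of all coding promoters. TATAAA was found in 4 (SRSF2, SRSF3, SRSF7 and SRSF11) and in 9.62% of all. CCAAT was found in SRSF2 and SRSF3 and in 36.0% of all, CCGGAAG, the core of many ETS factor sites, in SRSF4 and SRSF5 and in 14.1% of all, and TGACGTCA in no member and 2.68% of all. None of the 4 members with TATAAA had a summit in the promoter window, and of the 4 genes with an upstream summit, SRSF1 and SRSF10 held none of the 5 motifs. SRSF9, which had no upstream summit, also held none of them. How often promoters with each motif held a summit was not computed over all coding genes, so no link between motif and summit is read from these genes.

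The ends of the genes held 4 of the 6 peaks of 1 kb or wider. A goat antibody summit lay in the last exon of the canonical transcript or within 1 kb beyond it in 6 members (SRSF2, SRSF3, SRSF6, SRSF7, SRSF9 and SRSF10), against 2.37% of 18805 canonical transcripts of 2 or more exons. This measure was chosen after the positions had been seen. By class, 7 of the 26 summits on the canonical transcripts with 1 kb either side were in a 3′ UTR, or 26.9%, against 3.89% of 6197 summits over all coding genes. The 3′ UTRs made up 16.4% of that sequence in the SRSF genes and 2.79% over all coding genes, so the SRSF genes also held more of it. Introns held 46.2% of the summits at the SRSF genes and 68.2% over all coding genes, for 63.4% and 90.9% of the sequence.

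**Figure D4:**
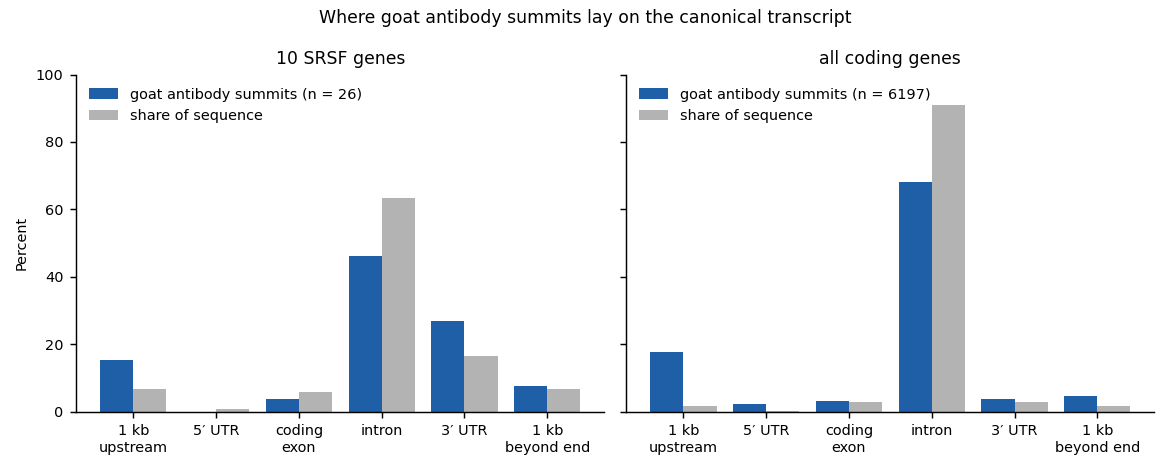
Percent of goat antibody summits (blue bars) and percent of the sequence (grey bars) in each class of position on the canonical transcript with 1 kb either side, for the 10 SRSF genes (26 summits) and all coding genes (6197 summits). In the SRSF genes the 3′ UTR bar reaches 26.9% over a sequence share of 16.4%, and over all coding genes 3.89% over 2.79%.

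The widest of these peaks was at SRSF2 (chr17:74730197-74733415, minus strand), a component of nuclear speckles that acts on both splicing and transcription. It was 3210 bp wide (chr17:74727373-74730582), the 31st widest of the list, with a fold enrichment of 4.56. Its summit lay 875 bp past the end of SRSF2, within 1 kb of a start of METTL23. Most of this peak lay beyond the end of SRSF2, and it also overlapped METTL23 and ENSG00000267168. The other SRSF2 peak, 368 bp wide with a fold enrichment of 3.71, lay in the 3′ UTR. It also overlapped ENSG00000267168, and its summit lay within 1 kb of a start of MFSD11. No SRSF2 peak reached the promoter. At SRSF6 the peak in the last exon was 2478 bp wide (chr20:42090719-42093196), the 51st widest, with a fold enrichment of 5.32, and it also overlapped ENSG00000288000, which has a start within 1 kb of the SRSF6 promoter summits. At SRSF3 it was 2262 bp wide (chr6:36570535-36572796) with a fold enrichment of 7.83, and at SRSF7 1694 bp wide (chr2:38970639-38972332) with a fold enrichment of 5.46. Each of these 3 genes thus held a wide peak over its last exon, at fold enrichments above the list median. SRSF10 had a 791 bp peak with a fold enrichment of 4.97 and its summit in the 3′ UTR. Only 158 bp of this peak lay within the gene, and the rest lay beyond its end. SRSF9 (chr12:120899475-120933749, minus strand), one of the shortest SR proteins, had a 395 bp peak with its summit in intron 3 (5.09-fold). A 565 bp peak (5.13-fold) had its summit in the last exon, but most of it lay beyond the end of SRSF9. Both also lay over the neighbouring gene GATC. SRSF5 differed in that its 926 bp peak began 671 bp beyond the end of the gene, with a fold enrichment of 5.55, and its remaining peak, 251 bp wide with a fold enrichment of 3.69, had a summit in coding exon 5.

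SRSF3 (chr6:36562130-36573377, plus strand), the smallest SR protein and also an adaptor for mRNA export, had peaks along its whole length. In intron 1 the goat antibody gave peaks of 1229 and 771 bp with fold enrichments of 4.68 and 4.15. Each contained a mouse antibody peak, of 502 bp (chr6:36562988-36563489) and 324 bp (chr6:36564237-36564560), with fold enrichments of 4.28 and 4.68. The summits of the paired peaks were 426 and 219 bp apart, farther than the 9 bp at the SRSF6 promoter. Further downstream followed a goat antibody peak in intron 2 (4.71-fold), a pair in intron 3 (3.03-fold and 4.49-fold), 1 in intron 4 (3.74-fold) and a pair in the last exon (2.74-fold and 7.83-fold). The 2.74-fold peak was the lowest of all members, and it lay in the same last exon as the 7.83-fold peak, the highest of SRSF3.

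Annotated poison exons were overlapped in SRSF3 and SRSF7 and in no other member. An exon was counted as one when it belonged to an NMD transcript, lay within the canonical transcript and overlapped neither a canonical exon nor the coding sequence of a protein-coding transcript. By this rule 8 of the 10 genes had 19 such exons, SRSF1 and SRSF5 had none, and 6 exons in 2 genes carried a goat antibody peak. The rule did not require a stop codon in the exon. Of the 19 exons 17 were internal to their transcript and 11 of these held the annotated stop. The internal exons without it were those of SRSF2 and SRSF10 and all those of SRSF4 except its 175 bp exon. Of the 6 exons with a peak 4 were internal, and the 6 include a 25 bp last exon nested in the 456 bp exon of SRSF3 and a 276 bp exon nested in the 449 bp exon of SRSF7. Over all 3888 coding genes with such an exon, 1.11% had a goat antibody peak over it, and 3.78% of the 1137 that had a peak anywhere. Among the members with both, the count was 2 of 6. These were SRSF3 and SRSF7, in which peaks covered 58.8% and 55.0% of the canonical transcript span. The part of this coverage in the count was not tested. No mouse antibody peak lay over any of the 19 exons.

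In SRSF3 the 456 bp exon in intron 3 (chr6:36567598-36568053) was overlapped over 115 bp by the 3.03-fold peak (chr6:36566935-36567712), which is among the weakest at the members. A 98 bp exon of another NMD transcript in intron 2 was missed by 95 bp. SRSF7 (chr2:38970741-38978636, minus strand), a shuttling SR protein with a zinc knuckle that also acts in mRNA export, had higher peaks over its poison exons. Its 449 bp exon in intron 3 (chr2:38976040-38976488) was overlapped over 379 bp by a peak 933 bp wide with a fold enrichment of 5.83 (chr2:38976110-38977042), the highest at the gene. Its 69 bp exon in intron 5 lay wholly within a peak 971 bp wide with a fold enrichment of 5.75 (chr2:38973614-38974584). The 3.59-fold peak in intron 1 covered a 315 bp exon that is the first exon of an NMD transcript, so it is not a cassette exon. None of the summits of the peaks over a cassette exon lay inside it, and these overlaps rest on the flanks of peaks that are wider than most.

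The reading frames of NMD transcripts in 3 of these poison exons are given up to the stop codon, in capitals, to set exons with a peak beside one without. All are on hg19 and given 5′ to 3′ on the gene's strand. The SRSF3 and SRSF7 exons had a goat antibody peak over them, and the exon of SRSF6 (268 bp, nearest peak 1321 bp away) did not. The SRSF3 and SRSF7 frames of intron 3 reached the stop after 10 and 8 whole codons, and that of SRSF6 after 49. In the other exons without a peak that held a stop, it came after 2 codons at SRSF9 to 26 in intron 2 of SRSF3. The SRSF7 intron 5 exon, which had a peak, reached it after 20, so frame length did not separate exons with a peak from those without.
SRSF3 intron 3 (chr6:36567598-36567631): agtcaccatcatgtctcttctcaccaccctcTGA
SRSF7 intron 3 (chr2:38976461-38976488): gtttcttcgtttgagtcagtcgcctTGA
SRSF6 intron 2 (chr20:42087793-42087944): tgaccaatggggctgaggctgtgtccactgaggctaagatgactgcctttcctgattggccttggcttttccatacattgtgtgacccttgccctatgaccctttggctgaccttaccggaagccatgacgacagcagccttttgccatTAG

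For comparison with the promoter windows, the 101 bp around the summits of the peaks over the SRSF3 intron 3 exon (chr6:36566949-36567049, plus strand) and the SRSF7 intron 5 exon (chr2:38973892-38973992, minus strand) contained no CG dinucleotide and had GC contents of 36.6% and 29.7%.
SRSF3 intron 3 summit: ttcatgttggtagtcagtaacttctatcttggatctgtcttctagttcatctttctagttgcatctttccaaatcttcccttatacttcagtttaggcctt
SRSF7 intron 5 summit: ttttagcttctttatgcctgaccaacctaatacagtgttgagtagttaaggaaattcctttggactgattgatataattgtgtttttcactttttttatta

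The poison exons of the remaining members had no peak over them. The exon of SRSF2 lay 567 bp from the nearest goat antibody peak, that of SRSF9 2222 bp and that of SRSF10 2325 bp. The exons of SRSF4 and SRSF11 were at least 187 kb and 58.2 kb from one, since these genes had no peak at all. SRSF4 (chr1:29474255-29508412, minus strand) encodes a large SR protein and is 34.2 kb long, and SRSF11 (chr1:70671365-70718735, plus strand) encodes a more distant SR-related protein and is 47.4 kb long. The nearest goat antibody peaks were 175 kb from SRSF4, at EPB41, and 37.1 kb from SRSF11, at ANKRD13C.

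The 1 kb window admitted few borderline peaks. Of the goat antibody peaks, 3 lay only in the flank, at 61 bp from SRSF6, 436 bp from SRSF7 (4.41-fold) and 671 bp from SRSF5, and the mouse antibody peak of SRSF6 lay 82 bp outside the gene. The nearest goat antibody peaks beyond the window were 2.17 kb from SRSF7 at GALM (4.18-fold), 2.87 kb from SRSF10 at PNRC2 (4.38-fold), 4.70 kb from SRSF1 (3.91-fold) and 7.37 kb from SRSF2 at JMJD6 (8.04-fold). At SRSF9, the next closest, the distance was 33.3 kb.

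Genes that work with the SR proteins were described by the same rule, over a list of 27 put together with the earlier results known. A goat antibody peak was present at 13 of them, or 48.1%, a mouse antibody peak at 4, or 14.8%, and a ChIP-seq peak at none, against 21.7%, 7.79% and 0.783% of all coding genes. Of the SR family genes outside the 10, SRSF8 and SRSF12 had no peak in any list. Both TRA2A and TRA2B, SR-like activators, had goat antibody peaks, with 9 at TRA2B, which were named after their values were seen. Of 16 SR-related splicing proteins 10 had a goat antibody peak and 3 a mouse antibody peak, and of the 7 kinases and import receptor that phosphorylate SR proteins or carry them into the nucleus each antibody marked 1. The highest fold enrichments by the goat antibody were 9.16 at RBM39, a splicing coactivator, 7.83 at U2AF2, which recognises the polypyrimidine tract, and 7.06 at the kinase CLK3. By the mouse antibody they were 5.23 at ACIN1, 4.996 at the kinase CLK2 and 4.28 at RBM39. RBM39 resembled SRSF3 and SRSF7, with 7 goat antibody peaks, the highest of them 4287 bp wide, and with peaks over 5 of its 8 annotated poison exons. Among the other related genes with a goat antibody peak, only SRRM2 had a peak over such an exon. TRA2B, with 9 goat antibody peaks, had none over its 1 annotated poison exon.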

How the data were processed

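The authors aligned paired-end reads of CUT&RUN and ChIP-seq to hg19 with Bowtie2, removed PCR duplicates with Picard and called peaks with MACS2 at default parameters, against goat IgG or input; the control of the mouse antibody list is uncertain. Whether the goat antibody replicates were pooled is not given in the sources used here. The deposited fold enrichment is a ratio to the control around each peak, and the deposited −log10 q-value is that of the peak caller. Positions count from 1. The gene annotation was GENCODE 44 on GRCh37. Peaks overlapping a gene with 1 kb either side by at least 1 bp were assigned to it, with Python 3.11.15, pandas 2.3.3, numpy 2.4.6 and pysam 0.24.0, and figures were drawn with matplotlib 3.10.9. The members and the lists of related genes were chosen with earlier results of these data known. Named were all 10 genes, their peaks over poison exons, in the mouse antibody list or at the window's edge, genes starting within 1 kb of a strongest peak, and the 3 highest related genes per list. The assignment was tested on simulated data. Alternatives varied peak thresholds, windows, overlap rules, merging and the definition of a poison exon. The other experiments of the series were not used here. The sequences of the other poison exons are not reported here.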

Additional observations from a re-analysis of the deposited data

How the results depend on the processing

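Of 101 values recomputed over 14 alternative settings, 88 stayed within the limits set for them (1.5 times for a count) and 13 moved further. The limits for a median were an interval over the member peaks, which for the 3 mouse antibody peaks was their whole range. The ChIP-seq counts of 0 were among the 88, and under a stricter filter or a smaller window they could not change. The 88 are therefore not a measure of how stable the results are. The goat antibody marked the same 8 SRSF genes at q-values under 0.01 or 0.001 and with 5 kb either side, and 6 (SRSF1, SRSF3, SRSF5, SRSF6, SRSF7 and SRSF9) at a fold enrichment of at least 5. At that fold enrichment 11 goat antibody peaks were left, with a median percentile of 80.3, and 1 mouse antibody peak at 1 gene, which was also the 1 overlap between the antibodies. Without the window the mouse antibody marked 1 gene. Merging peaks within 1 kb left 14 goat antibody regions, with median widths of 1736 bp for the goat and 907 bp for the mouse antibody. The number of genes with a goat antibody peak over a poison exon depended most on the definition. It was 1 at q-values under 0.001, 1 at a fold enrichment of at least 5, 1 when the summit had to lie within 100 bp of the exon (SRSF7, through its 315 bp first exon of an NMD transcript and no cassette exon), and 5 (SRSF1, SRSF2, SRSF3, SRSF7 and SRSF9) when every exon of NMD transcripts absent from the canonical transcript was counted. No paired analysis was possible because the lists hold no column per replicate and no test was made, and for the same reason no replicate could be left out. The depth of the lists is unknown, so a gene without a peak is a gene at which none was called.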
